A study of Mus musculus with 4 samples.

Results

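The cadherin and stromal adhesion group comprised 9 genes chosen by name: the cadherins Cdh2, Cdh11, Cdh13 and Cdh15, the immunoglobulin-superfamily molecules Ncam1, Mcam, Alcam and Icam1, and the hyaluronan receptor Cd44. All 9 were measured, out of 18193 genes, by 27 probe sets annotated to 1 of them alone. The RNA came from cells sorted from the bone marrow of NOD/SCID mice (strain NOD.CB17-Prkdc scid/J), adult animals that served as transplant recipients, which lack mature lymphocytes because of the scid mutation. Sorting selected CD51+ cells (integrin alpha v) without CD45, CD31, Sca1 or blood lineage antigens, a combination that the submitters used for osteoblasts. The cells were taken from the trabecular bone area (trabecular arrays 1 and 2, here T1 and T2) or from the long bone area (long bone arrays 1 and 2, here L1 and L2), and all samples shared the strain and the sort. The labels call the arrays of an area biological replicates. Exact age, transplanted cells and pooling of mice are not stated in the sources used here.

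Classical cadherins hold neighbouring cells together by binding the same cadherin on the next cell through calcium-dependent extracellular repeats, and their cytoplasmic tails are tied to actin by catenins. N-cadherin (Cdh2) on bone-lining osteoblasts was proposed as an adhesion molecule of the blood stem cell niche, a role that has been disputed, and cadherin-11 (Cdh11) is known as the osteoblast cadherin. The immunoglobulin-type molecules bind partners on other cells, among them leukocytes, and CD44 binds hyaluronan in the matrix.

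Each probe set's log2 value was centred on its own 4-array median, and a gene's value is the mean of its probe sets, so a gene has differences between arrays but no level. For a gene with 1 probe set the middle pair of arrays lies at mirror-image values for this reason alone. A coarse level could be read for a probe set from the step size of its stored numbers, which separates array levels of 8 and above on the log2 scale on all arrays, called bright below, from lower ones. Of 18193 genes 0 (0.0%) passed limma's test at an adjusted p under 0.05, and 2811 (15.5%) had an unadjusted p under 0.05. The values spread most widely on L2 (SD 0.483 over probe sets, against 0.271 to 0.311 on the other arrays). There the centred 5' value of the Gapdh control less its centred 3' value was -1.16 (-0.09 to 0.31 elsewhere). This sets L2 apart from the other arrays, but does not tell which end read lower on any array. Of the marker genes fixed for the sorted cells, 6 of 8 blood cell genes, among them Ptprc (CD45), had a bright probe set. So did 1 of 6 osteoblast genes (Alpl) and 8708 of all 18193 genes. Bglap, Bglap2, Runx2 and Spp1, also listed for osteoblasts, were not analysed here. A probe set that is low in 1 area cannot be bright, so these counts do not compare the amounts of the cell types. Itgav (CD51) had a bright probe set, and its log2 difference was -0.13 (SE 0.12).

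The promoters of 5 members were taken from the RefSeq table (GRCm38.p6), each from 250 bases before to 50 after the gene's start. Those of the other members, Cdh2 among them, are not reported here. Cd44 is shown as the member with higher trabecular values without overlap, and Mcam as 1 of the lower ones, although its difference nearly vanished without L2. The Cd44 promoter is chr2:102901616-102901915 on the minus strand and the Mcam promoter chr9:44134408-44134707 on the plus strand. Both are written 5′ to 3′, with E-boxes (CANNTG) and GC boxes (GGGCGG, either strand) in capitals.

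Cd44: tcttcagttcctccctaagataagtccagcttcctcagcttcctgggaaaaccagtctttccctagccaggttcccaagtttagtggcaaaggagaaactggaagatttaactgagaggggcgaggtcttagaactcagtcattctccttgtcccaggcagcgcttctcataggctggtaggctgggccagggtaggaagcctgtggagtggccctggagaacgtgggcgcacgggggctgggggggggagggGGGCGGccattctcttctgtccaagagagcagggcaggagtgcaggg
Mcam: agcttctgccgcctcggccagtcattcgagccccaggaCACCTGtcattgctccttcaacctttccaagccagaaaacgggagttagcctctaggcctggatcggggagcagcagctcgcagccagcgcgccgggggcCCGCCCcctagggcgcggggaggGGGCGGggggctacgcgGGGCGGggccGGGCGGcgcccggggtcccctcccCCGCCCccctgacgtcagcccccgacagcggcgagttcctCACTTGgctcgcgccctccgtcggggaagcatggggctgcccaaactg

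No E-box and 1 GC box were found in the Cd44 window, against 2 E-boxes and 5 GC boxes in that of Mcam. Of 32851 promoter windows of the same length, 72.3% held an E-box and 35.7% a GC box. The E-box form CACCTG, the core that Snail and Zeb repressors of cadherin genes are known to bind and a subset of CANNTG, was found once each in the Mcam, Alcam and Icam1 windows, on either strand, and in 20.2% of all windows. The Cdh15 window held 4 E-boxes, none of this form. The Icam1 window alone among the 5 had a TATA box (TATAAA on either strand), which 13.6% of all windows held. These matches describe letters in a window and no binding.

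The 9 genes comprised 7 with lower values in the trabecular area, as 45.4% of all genes had, and 2 with higher ones, with a median log2 difference of -0.29, against 0.03 over all genes. The values of 5 members did not overlap between the areas, 4 of them lower and 1 higher in the trabecular area, where 51.4% of all genes did not overlap (21.4% lower and 29.9% higher). No member passed the test over all genes (lowest adjusted p 0.302, limma, Benjamini-Hochberg), and 2 members, Cdh2 and Cd44, had an unadjusted p under 0.05. With 2 arrays against 2, an exact permutation test cannot go below p = 0.333. L2 was the highest of the 4 arrays for 5 members, against 35.2% of all genes. Directions are those of the deposited scale. Shifting each array by its spiked-in hybridisation controls adds 0.44 to every difference, and Cdh2, Cdh11 and Icam1 are then the members below 0.

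**Figure D1:**
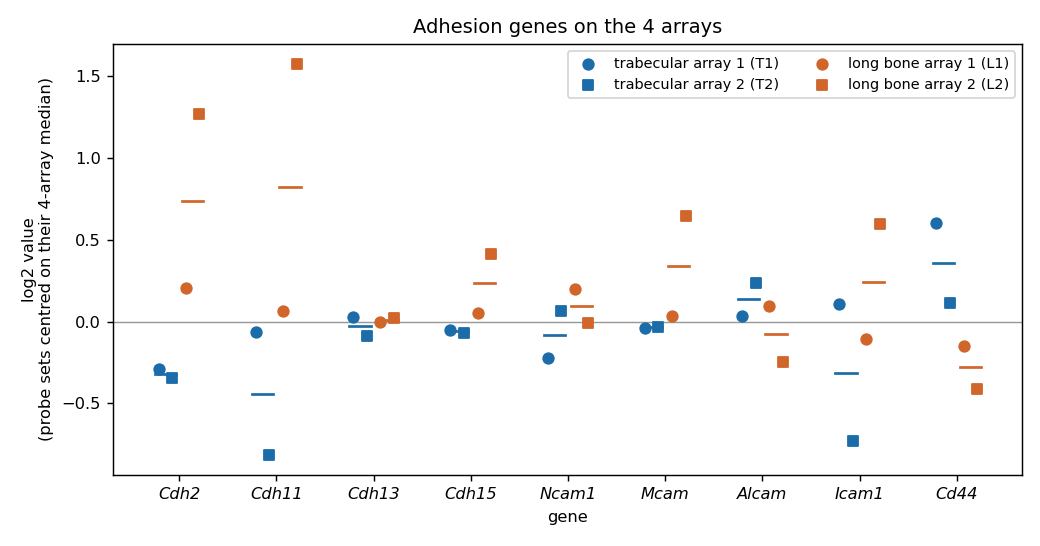
Log2 value of each gene, the mean of its separately centred probe sets (vertical axis), on the trabecular arrays (blue) and long bone arrays (orange), with short lines at the area means. Cdh2 and Cdh11 reach 1.27 and 1.58 on L2, and Cd44 runs the other way, from 0.60 on T1 to -0.41 on L2.

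Cdh2 was lower in the trabecular area. Its values were -0.29 (T1), -0.34 (T2), 0.21 (L1) and 1.27 (L2). As a mean of its probe sets, the trabecular pair lay close together below both long bone arrays. The latter were far apart from each other (mean -0.32 ± 0.04 against 0.74 ± 0.75, SD, n = 2 each). The log2 difference was -1.05 (95% interval -2.04 to -0.07), a 2.08-fold lower value, which did not pass the test (limma, adjusted p = 0.309). Both probe sets, neither of them bright, were lower without overlap, at -1.32 and -0.78. They placed T1 and T2 in opposite order and further apart than their mean did. 1418815_at was at -0.33 (T1) and -0.60 (T2), and 1449244_at at -0.25 (T1) and -0.08 (T2). The size rested on L2, without which the difference was -0.52. Without L1 it was -1.58, in a fit that takes its spread from the trabecular pair, whose closeness came from averaging the probe sets.

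Cdh11 had the largest difference of the 9 and the widest interval. It was at -0.06 (T1), -0.82 (T2), 0.06 (L1) and 1.58 (L2). T1 and L1 were nearly level, and the other array of each area stood far from them in opposite directions. The log2 difference was -1.26 (95% interval -2.79 to 0.27; limma, adjusted p = 0.372). It was -0.50 without L2. Without L1 it was -2.02, where L2 was the only long bone array. The 2 probe sets agreed in direction and not in size. The bright one, 1435120_at, differed by -0.46 without overlap, whereas 1450757_at differed by -2.06 with overlap, since it ranged from -1.26 on T2 to 2.88 on L2. With bright probe sets alone the gene was at -0.46.

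Cdh13, T-cadherin, lacks the cytoplasmic tail, is anchored in the membrane by a lipid and binds adiponectin. It was nearly level across the arrays, between -0.09 and 0.03, with a log2 difference of -0.04 (95% interval -0.37 to 0.29). The 4 probe sets differed by between -0.07 and 0.01. The interval does not reach the difference of Cdh2 (-1.05), but overlaps the interval of Cdh2 (-2.04 to -0.07). The genes were not tested against each other. The sign turned to 0.02 without T2. Adiponectin itself (Adipoq), made by fat cells and marrow stroma, was at 4.49 on L2 and between -1.10 and 0.72 on the others.

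Cdh15, M-cadherin of muscle satellite cells, was lower in the trabecular area by a small amount. The values were -0.05 (T1), -0.07 (T2), 0.05 (L1) and 0.41 (L2). Only L2 stood clear of the others. The log2 difference was -0.29 (95% interval -0.74 to 0.15; limma, adjusted p = 0.448), and -0.11 without L2. Its 1 probe set was not bright, as was the case for all 8 skeletal muscle markers, of which 5 were lower and 3 higher in the trabecular area. Pax7 and Myf5, transcription factors of satellite cells, differed by -0.29 and -0.51, and Ckm, the muscle creatine kinase, by -0.28. Without L2 these were -0.11, -0.29 and -0.36. The 3 higher markers differed by 0.01 to 0.17.

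**Figure D2:**
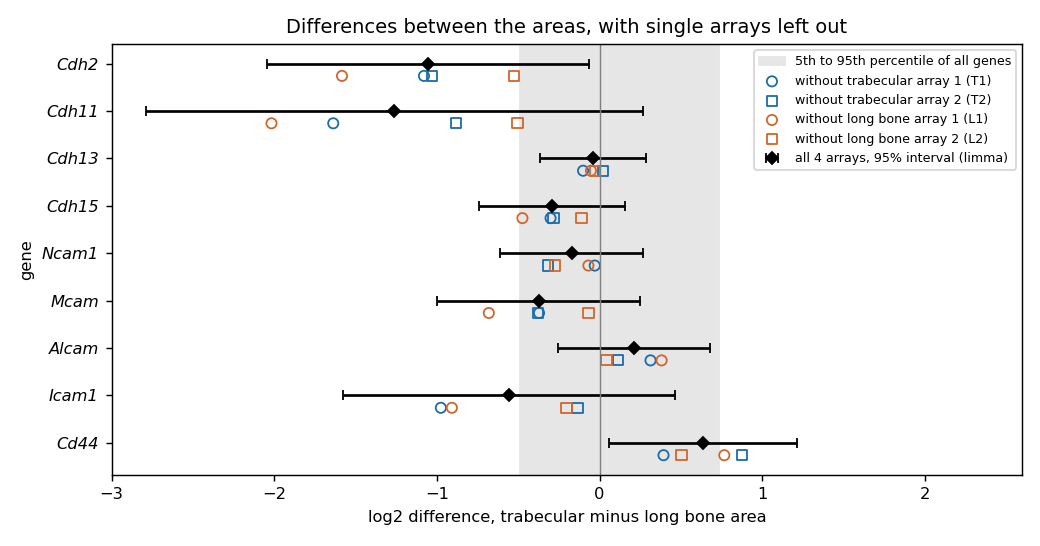
Log2 difference, trabecular minus long bone area (horizontal axis), of each gene with its 95% interval from limma (diamonds), and the difference with single arrays left out (open symbols). The grey band holds the middle of all genes, from the 5th percentile (-0.49) to the 95th (0.74). Cdh2, Cdh11 and Icam1 lie below the band, and without L2 Icam1 returns into it while Cdh2 and Cdh11 stand at its edge.

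Mcam (CD146), a marker of pericytes, endothelium and marrow stromal progenitors, was lower in the trabecular area through 1 array. It was at -0.04 (T1), -0.03 (T2), 0.03 (L1) and 0.64 (L2). The first 3 of these values lay close together. The log2 difference of -0.37 (95% interval -0.999 to 0.25; limma, adjusted p = 0.478) came to -0.07 without L2. Pericyte and smooth muscle markers were high on that array too, with a median of 0.75 against -0.23 to 0.01 on the others. All 8 of them were lower in the trabecular area (45.4% of all genes), 4 without overlap (21.4% of all genes). Without L2, Acta2 and Tagln turned to 0.36 and 0.25, Notch3 came to -0.02, and the others stayed below 0. Endothelial markers were split, 4 higher and 4 lower. The part of these cell types in the Mcam value was not tested.

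Icam1, which leukocytes bind through the integrins LFA-1 and Mac-1, did not separate the areas. It was at 0.11 (T1), -0.73 (T2), -0.11 (L1) and 0.60 (L2). The areas overlapped, with the lowest and the highest value both on the second array of an area. The log2 difference was -0.56 (95% interval -1.57 to 0.46; limma, adjusted p = 0.515). It ranged from -0.14 without T2 to -0.98 without T1.

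Ncam1 (CD56), a homophilic adhesion molecule of nerve, muscle and stromal cells, overlapped between the areas. Its values were -0.22 (T1), 0.06 (T2), 0.20 (L1) and -0.01 (L2). The log2 difference of -0.17 (95% interval -0.61 to 0.27; limma, adjusted p = 0.640) hid probe sets that disagreed, 4 higher and 3 lower in the trabecular area. The probe set 1439556_at accounted for the sign of the mean. It was at -1.63 (T1), 0.16 (T2), 1.39 (L1) and -0.16 (L2), with a difference of -1.35, whereas the other probe sets lay between -0.24 and 0.32. The median of the 7 probe sets gave 0.07 and the 2 bright ones gave 0.23, so no direction can be given for Ncam1.

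Alcam (CD166), which binds itself and the lymphocyte receptor CD6 and is found on osteoblasts and stromal cells, also depended on the probe set. As a mean of 5 probe sets it was at 0.04 (T1), 0.24 (T2), 0.09 (L1) and -0.24 (L2). The areas overlapped, and the log2 difference was 0.21 (95% interval -0.25 to 0.68; limma, adjusted p = 0.581). It was 0.04 without L2, 0.11 without T2 and 0.38 without L1. Both bright probe sets were higher in the trabecular area without overlap, 1426300_at by 0.46 (SE 0.12) and 1437467_at by 0.58 (SE 0.23), and together they gave 0.52. For 1426300_at the arrays were at 0.22 and 0.26 in the trabecular area and at -0.22 on both long bone arrays, the lowest p among the 27 probe sets (limma, adjusted p = 0.242 over all probe sets). The other 3 probe sets, none bright, went both ways, from -0.28 to 0.46.

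**Figure D3:**
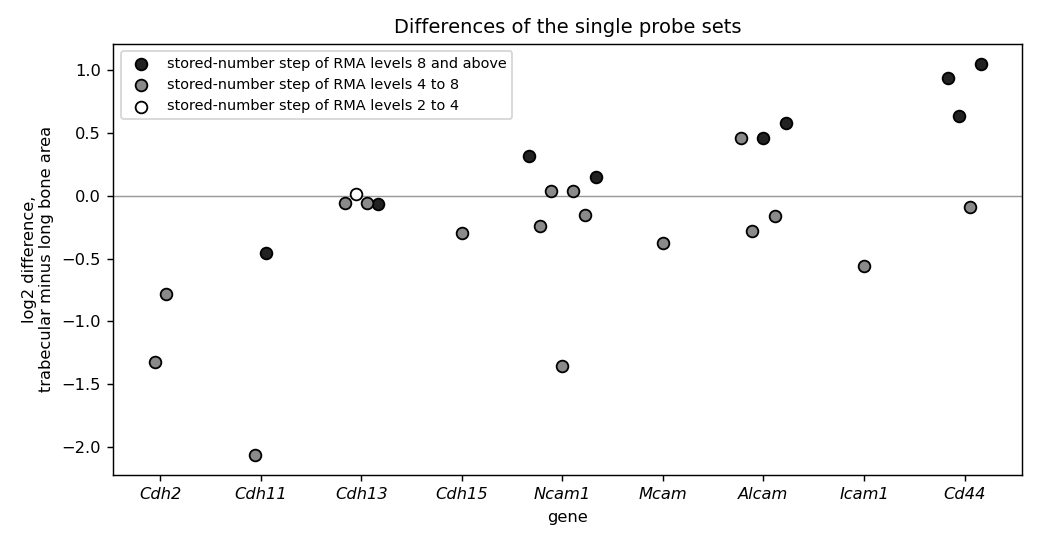
Log2 difference, trabecular minus long bone area (vertical axis), of each of the 27 probe sets, shaded by the level band that the step of the stored numbers gives. For Cd44 and Alcam all bright probe sets (black) lie above 0, at 0.46 to 1.05, while the dim ones spread around 0.

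Cd44 was higher in the trabecular area, the 1 member with separated values in that direction. It was at 0.60 (T1), 0.12 (T2), -0.15 (L1) and -0.41 (L2). T1 stood highest and L2 lowest, with the others close to the median. The log2 difference was 0.64 (95% interval 0.06 to 1.21), a 1.55-fold higher value, which did not pass the test (limma, adjusted p = 0.302). It stayed above 0 with any array left out, from 0.39 without T1 to 0.88 without T2. The 3 bright probe sets gave 0.94, 0.64 and 1.05, each without overlap, and the fourth, 1443265_at, which was not bright, gave -0.09. With bright probe sets alone the difference was 0.88, where the median of the 8708 genes with such probe sets was 0.20. Of 27 member probe sets 13 did not overlap, against 52.1% of all 45037 probe sets, and 5 had an unadjusted p under 0.05, against 16.3% of all.

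Cd44 is also abundant on blood cells, and some blood cell genes ran the same way over the arrays. Itgam (CD11b), the alpha chain of Mac-1, was at 1.03 (T1), 0.22 (T2), -0.22 (L1) and -1.87 (L2), and differed by 1.68, or by 0.85 without L2. Spi1, the myeloid transcription factor PU.1, was at 0.50 and 0.19 against -0.19 and -1.04. Ptprc did not follow this order as a mean of 2 probe sets, with 0.59 on L1 and -0.49, -0.10 and -0.50 on T1, T2 and L2. Its difference was -0.34, but 0.60 from its bright probe set alone and 0.20 without L1. Among 8 measured blood cell markers 5 had higher and 3 lower trabecular values, with medians of -0.03 (T1), 0.14 (T2), -0.10 (L1) and -0.18 (L2). The part of blood cells in the Cd44 value was not tested, and a change in the share of a cell type cannot be told apart from a change in RNA per cell in sorted bulk samples.

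The hyaluronan synthases, whose product CD44 binds, differed among themselves. Has2 was at 0.24 (T1), 0.29 (T2), -0.31 (L1) and -0.66 (L2). Its log2 difference of 0.75 (SE 0.16; limma, adjusted p = 0.243) was about that of Cd44. Has3 differed by -0.37 without overlap, and Has1 by -0.39 with overlap. Lyve1, the hyaluronan receptor of lymphatic vessels and some macrophages and the nearest relative of CD44, differed by 0.78 (SE 0.17). The 15 measured ligands, counter-receptors and hyaluronan genes split into 9 with a higher and 6 with a lower trabecular value (median 0.01), 4 higher and 2 lower without overlap, and 5 had an unadjusted p under 0.05, against 29.9%, 21.4% and 15.5% of all genes. Fgfr1, a receptor that NCAM and N-cadherin bind, differed by -0.41.

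Moesin, ezrin and radixin, which link CD44 to actin, had higher trabecular values, in part through L2. Msn (moesin) was at 0.50 and 0.02 against -0.02 and -1.30, a log2 difference of 0.92 that was 0.29 without L2. Ezr (ezrin) differed by 0.40 and Rdx (radixin), with overlap, by 0.22, and by 0.23 and 0.07 without L2. Nf2 (merlin), of the same protein family, differed by 0.03. Of 10 measured linkers and sheddases 8 were higher and 2 lower, with a median of 0.08. Ank3 (ankyrin-G) and Mmp14, a membrane protease that cuts CD44, were the 2 lower ones, at -0.33 and -0.27, and at -0.13 and -0.16 without L2. Adam10, which sheds N-cadherin and CD44, differed by 0.10 and turned to -0.03 without L2, and Adam9 differed by 0.17.

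The catenins differed among themselves. Ctnnb1 (beta-catenin), the link between classical cadherins and alpha-catenin, differed by 0.15 with overlap, and by -0.15 without L2. Jup (plakoglobin) differed by 0.04, whereas the alpha-catenin gene Ctnna1 differed by -0.21, Ctnnd1 (p120-catenin) by -0.30 and Ctnnd2 by -0.51, each without overlap. Vcl (vinculin) and Afdn (afadin), actin-binding proteins of the junction, differed by 0.51 and 0.50, and by 0.24 and 0.22 without L2. Over the 12 catenins and partners, 7 were higher and 5 lower, with a median of 0.04.

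The 17 other cadherin genes split into 7 higher and 10 lower ones, 1 and 7 of them without overlap (29.9% and 21.4% of all genes), with a median of -0.11. Their differences were smaller than those of Cdh2 and Cdh11. Cdh17, Cdh10 and Cdh19, cadherins of gut epithelium, brain and nerve sheath cells, had the largest at -0.39, -0.34 and -0.31, and Cdh18 was the 1 higher without overlap, at 0.18. Cdh5 (VE-cadherin), which marks endothelium, and Cdh1 (E-cadherin), of epithelium, differed by 0.04 and 0.01.

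Among 22 other immunoglobulin-type adhesion genes 17 were lower and 5 higher in the trabecular area, 9 and 3 without overlap (21.4% and 29.9% of all genes), with a median of -0.13, and L2 was the highest array for 16 (35.2% of all genes). Cadm1, a homophilic adhesion molecule of many tissues, was at -0.20 (T1), -0.41 (T2), 0.27 (L1) and 0.40 (L2). Its log2 difference was -0.64 (SE 0.14; limma, adjusted p = 0.243), and it kept between -0.53 and -0.74 with any array left out. Nectin3 and Chl1 differed by -0.35 and -0.28. Icam2, a ligand of LFA-1 on endothelium and blood cells, was at 0.57, a value that came to 0.19 without T2, and L1cam and Icam5 were at 0.31 and 0.24. Vcam1, the stromal ligand of the integrin VLA-4, overlapped, at -0.26, and turned to 0.29 without L2.

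Of 6 transcription factors known for switching cadherins during epithelial-mesenchymal transition, 5 were lower in the trabecular area with all arrays (45.4% of all genes). Of these, 3 were lower without overlap (21.4% of all genes). Twist1 and Zeb1 overlapped, Twist1 at -0.54 and at 0.03 without L2, and Zeb1 at -0.18 and at 0.06 without L1. Snai1 overlapped, at 0.22 and at -0.20 without T1. Snai2 (Slug) stood at 2.72 on L2, and at -0.06, -0.71 and 0.06 on T1, T2 and L1. Its log2 difference was -1.78, and -0.45 without that array. Twist2 and Zeb2 differed by -0.43 and -0.38, and by -0.24 and -0.21 without L2. Over these 6 lists 0 genes passed the test over all genes (0.0% of all genes did), and 7 had an unadjusted p under 0.05, where 15.5% of all genes had. They were 5 of 15 ligands, counter-receptors and hyaluronan genes, 1 of 12 catenins and partners, and 1 of 22 immunoglobulin-type genes. The 17 other cadherins, 10 linkers and sheddases and 6 transcription factors held 0.

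**Figure D4:**
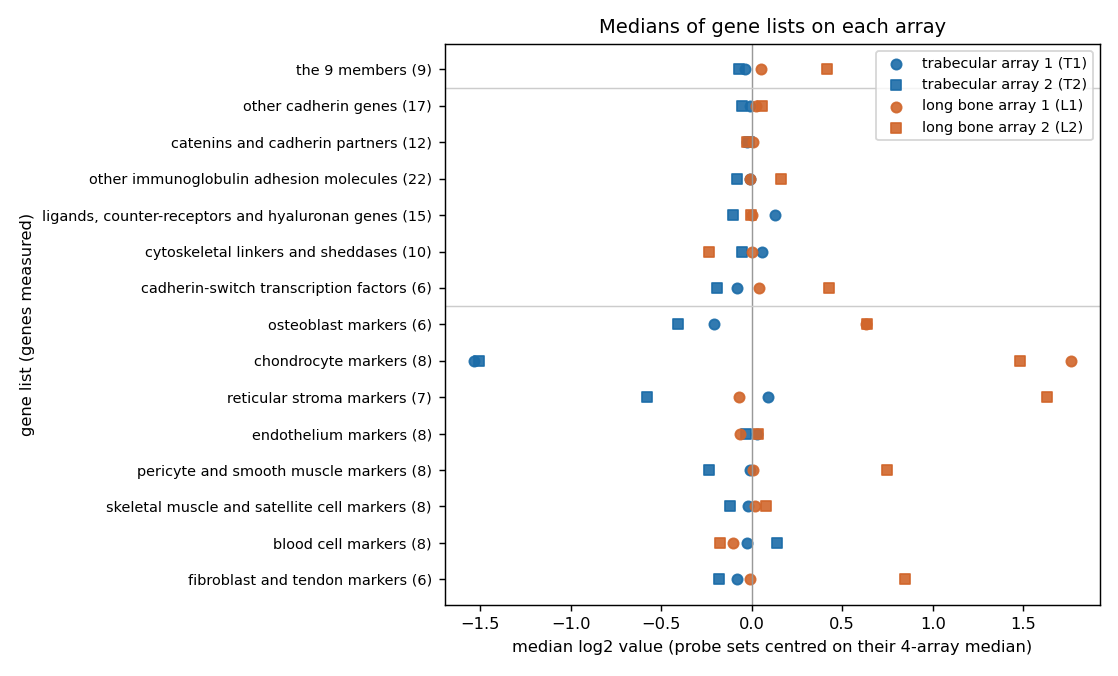
Median centred log2 value (horizontal axis) of the 9 members, of 6 lists of related adhesion genes and of 8 cell type marker lists, on the trabecular arrays (blue) and long bone arrays (orange). The member median is 0.41 on L2 and between -0.07 and 0.05 on the others, and reticular stroma markers reach 1.63 on that array, while chondrocyte markers are high on both long bone arrays.

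The genes whose 4 values lay nearest to Cdh2 were Akap12, Fam20a and Itgb5, at Euclidean distances of 0.10, 0.12 and 0.12 over 4 arrays, where the median gene was 1.39 away. Akap12 is a scaffold of protein kinase A, Fam20a a pseudokinase of the secretory pathway and Itgb5 a beta chain that pairs with CD51. All 3 were near 0.2 on L1 and above 1.18 on L2. Cdh11 was nearest to Pdk4, S1pr3 and Id4, at 0.22, 0.27 and 0.29, against 1.80 for the median gene. Pdk4 is a kinase that restrains pyruvate oxidation, S1pr3 a receptor for sphingosine 1-phosphate and Id4 an inhibitor of helix-loop-helix factors. Over 4 arrays such distances describe shape and no more.

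Some markers of other stromal cells were high on the same array as Cdh2 and Cdh11. The 7 reticular stroma markers were all highest on L2, with a median of 1.63 there and of 0.09, -0.58 and -0.07 on T1, T2 and L1. Their median, like Cdh11, was lowest on T2, highest on L2 and near 0 on T1 and L1. Cxcl12, the chemokine that retains stem cells, was at 0.19, -1.35, -0.19 and 1.89 in that order, and Pdgfrb, a receptor of mural and stromal cells, at 1.90 on L2. Fibroblast and tendon markers had a median of 0.85 on that array and -0.18 to -0.01 on the others, and 4 of 6 were highest there. Dcn and Lum were also high on L1, at 1.34 and 0.83, and Pi16 was at -0.80 on L2. Chondrocyte markers were high on both long bone arrays alike, with medians of -1.53, -1.51, 1.76 and 1.48 in the order T1, T2, L1 and L2, and osteoblast markers had medians of -0.21, -0.41, 0.63 and 0.64. Levels cannot be summed in centred values, and the part of these cells in the Cdh2 and Cdh11 values was not tested.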

How the data were processed

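Biotin-labelled, amplified RNA of the sorted cells was read on 4 Affymetrix arrays, per the labels. The series' design text names a human array, whereas the probe sets have mouse names and annotation. The deposited values come from RMA (no version), per the submitters' processing notes, and were centred per probe set on the 4-array median, as the values show. The deposited values were taken as log2, the scale RMA gives. Neither the centring software nor the log base is stated in the sources used here.

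The 64 control probe sets were left out of the tests, and 45037 were fitted. A gene was the mean of the probe sets annotated to it alone (34945 probe sets, 18193 genes). Gene IDs of 34741 probe sets matched RefSeq genes, with 0 symbols changed. The test between areas was limma 3.58.1 under R 4.3.3 (lmFit, eBayes, 2 residual degrees of freedom, two-sided, Benjamini-Hochberg over all features). The fit and the reading of number steps were tested on simulated data. A filter on low levels could not be set on centred values, so bright probe sets alone were an alternative. Arrays held identical values for 65 to 107 probe sets a pair and were kept as separate samples. The number of arrays limits the precision.

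The members and lists were chosen with earlier results of these data known. The rule named the 9 members, up to 3 genes per list and direction with the largest differences among those without overlap, the 3 nearest genes of Cdh2 and of Cdh11, and the sorting antigens. Other genes were picked after their values were seen. Of the listed genes 1 sorting antigen, 5 genes of the adhesion lists and 6 markers were not analysed here. Gene lists were described by counts and medians, with no set test.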

Additional observations from a re-analysis of the deposited data

How the results depend on the processing

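Over 103 recomputed differences of the 9 members, 93 kept their direction and their side of the threshold, 3 passed it and 7 changed sign. The counts of 0 called features became 1603 genes (1053 higher, 550 lower), 2 members and 8 genes of the adhesion lists without L1, and 1 gene without L2, so that leaving out single arrays gave 0 to 1603 genes, 0 to 2 members and 0 to 8 list genes. Of the probe sets, leaving out single arrays called 0. Fits without 1 array take their spread from the other area's pair, so their counts give no result about the members. Ordinary t statistics called 1 probe set and 1 gene, a trend over the level band 2 probe sets, and probe sets ending in _at alone 1 gene. Ordinary t statistics, the trend and the replicate block leave every difference as it was, and can change only its side of the threshold. The median of probe sets and probe sets ending in _at alone repeated the differences of Cdh2, Cdh11, Cdh15 and Icam1. The 93 of 103 thus include differences whose direction could not turn. Shifting each array by its hybridisation controls added 0.44 to every difference. It then called 5894 of 18193 genes (5787 higher, 107 lower) and 2 of 45037 probe sets. Among them were 1 of 9 members (Cd44 at 1.07) and 17 genes of the adhesion lists, which held 17, 12, 22, 15, 10 and 6 measured genes. The shares of members and of list genes called were below the share of all genes. Relative to that shift no difference changed. In absolute terms Cdh13 turned to 0.40, Cdh15 to 0.15, Ncam1 to 0.26, Mcam to 0.063, Itgav to 0.31, Ptprc to 0.10, Pecam1 to 0.42, Cdh10 to 0.10, Cdh17 to 0.048, Cdh19 to 0.13, Ctnna1 to 0.23, Ctnnd1 to 0.14, Chl1 to 0.15, Nectin3 to 0.088, Has3 to 0.067, Fgfr1 to 0.031, Ank3 to 0.10, Mmp14 to 0.17, Twist2 to 0.0031, Zeb2 to 0.059, Kdr to 0.13, Pax7 to 0.15 and Ckm to 0.16, while Cdh2, Cdh11 and Icam1 stayed below 0, at -0.62, -0.82 and -0.12. With bright probe sets alone Ncam1 was at 0.23, Ptprc at 0.60 and Ctnna1 at 0.090, and the median of probe sets put Ncam1 at 0.073. With single arrays left out, signs turned among the members and sorting antigens for Cdh13 (-0.10 to 0.019, the latter without T2), Pecam1 (-0.090 to 0.046, above 0 without T2 or L1) and Ptprc (-0.88 to 0.20, the latter without L1), and among the other genes named for Cdh1 and Jup (each without 2 of the arrays), Cdh5, Ctnnb1, Vcam1, Adipoq, Adam10 and Twist1 (each without L2) and Snai1 (without T1 or L1). Acta2 (without T2 or L2), Tagln (without L2) and Zeb1 (without L1) turned as well. The cause of these changes was not tested. With the replicate number as a block 0 features were called, with 5707 probe sets and 2450 genes at an unadjusted p under 0.05, against 7325 and 2811 without it. The labels do not tie the numbers to mice, and deviations of same-numbered arrays correlated at -0.18 over probe sets. What signal over background limits could not be read, since the centred values hold no level beyond the step of the stored numbers.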
